A study of Homo sapiens with 30 samples.

Results

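The collagens, the laminins and the integrins are the fibre-forming and network-forming proteins of the extracellular matrix together with the cell-surface receptors that hold on to them. In the count table of H1299 cells they were taken by symbol as every protein-coding gene named COL with a chain number, every LAMA, LAMB or LAMC gene, and every ITGA or ITGB gene that encodes a subunit or the integrin beta-like protein. This gave 83 of the 39359 genes in the table, of which 44 are collagens, 12 are laminins and 27 are integrins. Within these families membership followed from the symbols alone. After the filter on low counts 72 members could be tested, namely 34 collagens, all 12 laminins and 26 integrins. The 11 others, whose highest count in any library was 15, were COL1A2, COL3A1, COL4A2, COL6A5, COL6A6, COL8A1, COL9A1, COL10A1, COL22A1, COL23A1 and ITGA8.

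Collagens are built from 3 chains wound into a triple helix. Some form fibrils, some sit on the surface of fibrils, type IV collagen makes the sheet-like network of basement membranes, and a few stay in the plasma membrane. Laminins are cross-shaped trimers of an alpha, a beta and a gamma chain and form the layer of the basement membrane that faces the cell. Integrins are receptors of an alpha and a beta subunit that bind collagen, laminin, fibronectin or other ligands outside the cell and couple them to the cytoskeleton. The tumour suppressor p53 is a transcription factor that binds DNA as a tetramer and activates genes of cell cycle arrest, apoptosis and repair.

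H1299 is a human lung carcinoma cell line that makes no p53 of its own. All cells received a plasmid transiently, with GFP driven by a tetracycline-responsive promoter, and were sorted for GFP before RNA extraction, so each library stands for transfected cells that express the plasmid. The pGFP vector carried GFP alone and the other 3 vectors also carried a p53 coding sequence under a separate promoter of the same kind. It encoded wild type p53, or RW mutant p53 with tryptophan for arginine at codon 248, or the wild type sequence with a single O6-methylguanine (O6-meG) in the template strand at codon 248. The repair protein AGT removes this lesion, and the vector used with active AGT is called p53 O6-meG. In p53 TM, where TM stands for transcriptional mutagenesis, the same lesion vector was combined with 10 µM O6-benzylguanine, an inhibitor of AGT, so that the polymerase can put uridine across from the lesion. Only the p53 TM cultures received O6-benzylguanine, so a difference between p53 TM and wild type p53 joins the lesion and the inhibitor, which cannot be told apart in that comparison. Each of the 5 conditions was collected 6 h and 24 h after transfection in biological triplicate, which gave 10 groups and 30 libraries. The p-values below measure the spread among these replicates of 1 cell line.

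Total counts per library ranged from 32302699 to 71950532 with a median of 44424643. The title of replicate 2 of p53 O6-meG at 6 h and that of replicate 2 of p53 TM at 6 h each name one condition and then another. These 2 libraries were left out of the fits except where a placement of them is named, so both groups had 2 libraries at 6 h, and their values are printed below in brackets at the place their genotype entry gives them. CDKN1A, which encodes the cell cycle inhibitor p21 and is a classical p53 target, stood at 50.2 counts scaled to library size (CPM) in the first of them against 269 and 261 in the other p53 O6-meG libraries, and at 250 CPM in the second against 65.9 and 57.9 in the other p53 TM libraries. At 24 h CDKN1A was at 44.6, 50.2 and 49.2 CPM with pGFP and at 544, 788 and 513 CPM with wild type p53. All 6 marker genes of the lung epithelial lineage averaged under 1 CPM at both times, although H1299 is a lung carcinoma cell line. Of the markers of other cell types, all 6 of fibroblasts and all 5 of endothelium also averaged under 1 CPM at both times. In the order named, the summed levels at 24 h were 1.18 to 2.18, 1.35 to 2.10 and 1.25 to 2.02 CPM with pGFP. With wild type p53 they were 1.26 to 1.66, 1.61 to 3.42 and 2.30 to 2.67 CPM. Of the 5 leukocyte markers in the table all averaged under 1 CPM at 6 h and all but CD14 at 24 h, when they summed to 2.25 to 2.40 CPM with pGFP and 1.18 to 2.42 CPM with wild type p53. The epithelial markers EPCAM, CDH1 and KRT19 were under 1 CPM as well, but the 6 epithelial markers together, mostly the keratins KRT18 and KRT8, were at 422.9 to 522.3 CPM with pGFP and 467.9 to 592.5 CPM with wild type p53 at 24 h. The 5 mesenchymal markers, mostly VIM, summed to 2034 to 2820 CPM with pGFP and 2878 to 3450 CPM with wild type p53 at 24 h, groups that do not overlap. The part of these markers in the results below was not tested.

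Without p53 the surface receptors and laminin chains of H1299 cells were far more abundant than most collagens. Scaled for exonic length, the median level with pGFP at 24 h was 2.28 reads per kilobase of exon at a common library size (RPKM) for the laminins, 0.729 RPKM for the integrins and 0.0394 RPKM for the collagens. Only 12 of the 83 members were above 10 RPKM and 38 were below 0.1 RPKM. The highest were the laminin receptor subunit ITGA6 with 59.8 ± 12.3 RPKM (SD, n = 3), ITGA3, another laminin receptor subunit, with 35.1 ± 4.62 RPKM, and ITGB1, the beta subunit shared by most matrix-binding integrins, with 33.5 ± 2.85 RPKM. The SDs of ITGA3 and ITGB1 exceed the gap between them, so their order is not resolved. Among the laminins LAMC1, the gamma chain of most laminin trimers, was highest with 21.5 ± 0.834 RPKM, followed by LAMB2 with 14.2 ± 0.445 and LAMB3 with 11.8 ± 3.29 RPKM, a pair whose spreads overlap. COL6A2, COL18A1 and COL6A1 led the collagens with 17.3 ± 0.705, 15.7 ± 1.71 and 14.5 ± 1.49 RPKM. COL6A1 and COL6A2 encode chains of the beaded filaments of type VI collagen, and COL18A1 encodes the basement membrane collagen from which endostatin is cut.

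**Figure D1:**
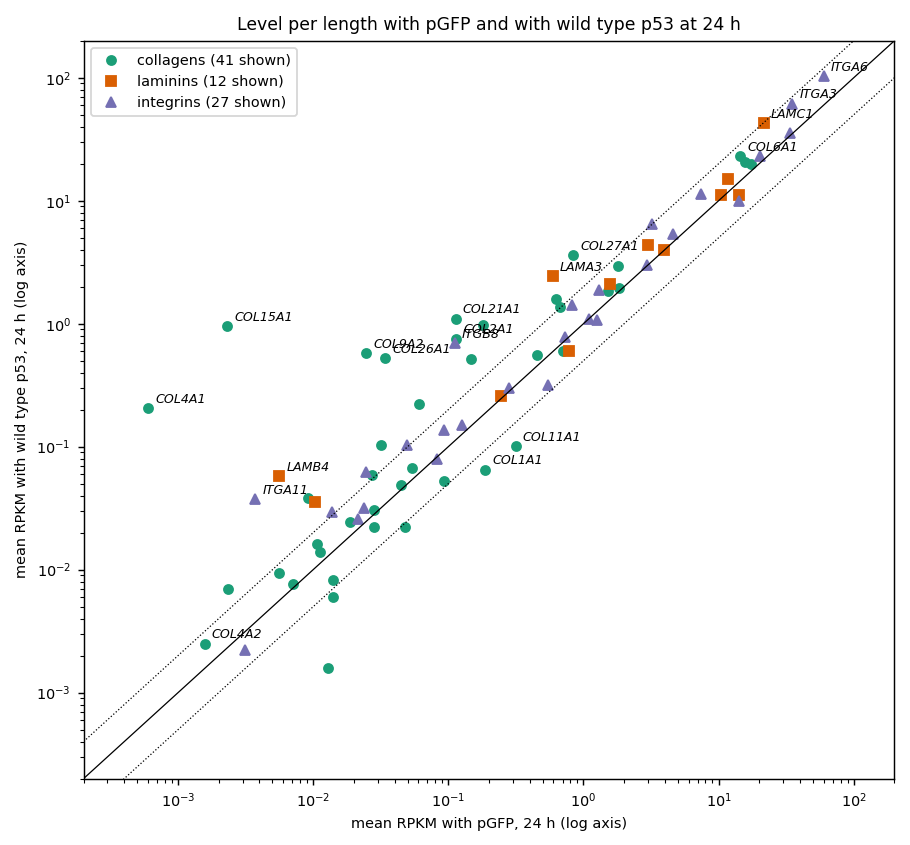
Mean level of 80 members in RPKM (reads per kilobase of exon, scaled to library size, n = 3 libraries) with pGFP (horizontal) and with wild type p53 (vertical) at 24 h, both on log axes; the solid line marks equal levels, the dotted lines a 2-fold difference, and 3 members with a mean of 0 in either group are left out. The most abundant members, such as ITGA6, ITGA3 and LAMC1, lie between the line of equal levels and the upper 2-fold line, ITGB1 lies close to equal levels, and the members farthest above it, COL4A1 and COL15A1, had 0.000604 and 0.0023 RPKM with pGFP.

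The first question was which matrix and receptor genes changed when wild type p53 was expressed. At 24 h 23 of the 72 tested members changed at least 2-fold against pGFP with an adjusted P below 0.05 (quasi-likelihood test of edgeR, Benjamini-Hochberg correction), 21 upwards and 2 downwards. Over all 21335 genes tested 11.2% passed the same limits, 9.22% upwards and 1.99% downwards, against 31.9% of the members. The filter on low counts admits genes that are near 0 with pGFP and high in other groups, among the members and among all genes. COL4A1, COL15A1, COL9A2, COL26A1, COL5A3, LAMB4 and ITGA11 were tested for this reason. Their calls are not independent of the filter, here and in the shares below. Called were 16 of 34 collagens, 3 of 12 laminins and 4 of 26 integrins. At 6 h 8 members were called, all of them higher and 7 of them collagens, which is 11.1% of the members against 4.49% of all genes, or 4.39% in the higher direction. The median log2 fold change at 24 h was 0.54 for collagens, 0.39 for laminins and 0.34 for integrins, against 0.01 for all genes. In bulk RNA a larger share of responding cells and more RNA per cell cannot be told apart. Counts on the members made up 0.291 to 0.321% of each library with pGFP and 0.387 to 0.405% with wild type p53 at 24 h. By adjusted P alone, without the limit on fold, 32 members were higher and 7 lower at 24 h, or 54.2% of the members against 35% of all genes (20.5% higher, 14.5% lower).

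COL4A1, which encodes the alpha1 chain of type IV collagen, and COL15A1, which encodes a collagen of the zone next to basement membranes, were all but silent without active p53. COL4A1 lies on chromosome 13 at 110148963 to 110307157 on the minus strand of hg38 and COL15A1 on chromosome 9 at 98943179 to 99070792 on the plus strand. COL4A1 was at 0 CPM in all 3 pGFP libraries at 6 h, and at 0.539, 0.661 and 0.619 CPM with wild type p53. At 24 h it was at 0.0266, 0 and 0 CPM with pGFP and at 4.50, 2.47 and 2.09 CPM with wild type p53. The groups did not overlap at either time, although the highest value rests on 180 reads. Against 0 reads in pGFP the 94 reads at 6 h set a bound of at least 30.9-fold higher (floor of 3 counts over the group), and at 24 h the ratio of the pooled counts, 383 against 1, was 373 (95% interval 66.6 to 14780, counting error only). COL15A1 was likewise at 0 CPM in every pGFP library at 6 h, with 0.399, 0.456 and 0.605 CPM under wild type p53, and at 24 h it was at 0, 0 and 0.0459 CPM against 7.35, 7.29 and 4.32 CPM. It was at least 25.7-fold higher at 6 h, and at 24 h the 815 reads against 2 gave a ratio of 397 (95% interval 110 to 3285). Both genes were called at 6 h, with adjusted P of 7.25e-07 for COL4A1 and 0.000214 for COL15A1, and at 24 h, with adjusted P of 5.26e-10 and 1.17e-08. In these cells even the induced level was modest per length, with 0.206 ± 0.0882 RPKM for COL4A1 and 0.95 ± 0.261 RPKM for COL15A1 (SD, n = 3).

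COL4A1 is usually transcribed head to head with COL4A2, whose product joins it in the type IV trimer. In RefSeq on GRCh38.p14 126 bases lie between the start sites, at 110307157 for COL4A1 and 110307284 for COL4A2 on chromosome 13. COL4A2 did not follow COL4A1 to a testable level. It had 0, 3 and 1 reads with pGFP and 2, 0 and 4 reads with wild type p53 at 24 h, where COL4A1 had 180, 115 and 88 reads. The interval between the start sites is shown because both genes border on it. The letters are those of chr13:110307158-110307257, the 100 bases next to COL4A1, on the plus strand, which reads towards COL4A2, and the rest of the interval is transcribed in GENCODE v44 models of COL4A2. GENCODE v44 also places a further COL4A2 start upstream, at 110305812. Capitals mark CCAAT and GGGCGG, the letters of the CCAAT box and the GC box, searched on both strands.
COL4A1-COL4A2: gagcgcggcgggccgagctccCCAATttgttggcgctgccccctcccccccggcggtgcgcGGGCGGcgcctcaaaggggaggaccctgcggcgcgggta

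A p53 binding site consists of a pair of 10-base half-sites, and the windows of 250 bases upstream of the RefSeq start sites were searched for the consensus of 1 half-site. Such windows were found for 59 of the 83 members, 78 windows in all. The half-site stood in 1 of these 78 windows (1.28%) and in 5.57% of all 35116 windows, GGGCGG in 42 of the members' windows (53.8%) against 42.6% of all, and CCAAT in 17 (21.8%) against 32.0%. The 1 window with a half-site was that of COL17A1, the transmembrane collagen of hemidesmosomes. COL17A1 was at 9.48, 10.5 and 11.9 CPM with pGFP and at 11.8, 13.5 and 13.6 CPM with wild type p53 at 24 h, with overlapping groups and an adjusted P of 0.0775. Within each replicate number the wild type p53 library was the higher one. COL9A2, one of the most strongly raised collagens, had 3 GGGCGG matches and no half-site. A window without the letters says only that they were not in those bases. The 2 windows are set side by side on the minus strand, in the direction of transcription, COL9A2 at chr1:40317287-40317536 and COL17A1 at chr10:104085881-104086130. The COL9A2 window overlaps exons of other COL9A2 transcripts in GENCODE v44. In COL9A2 the capitals mark the GC box, once as printed and then as an overlapping pair read from the other strand. In COL17A1 they mark first the CCAAT box read from the other strand and then the half-site. Among the members not in the promoter table were COL1A1, COL1A2, COL2A1, COL3A1, COL5A2, COL6A1, COL6A5, COL8A1, COL9A3, COL14A1, COL20A1, COL22A1, LAMA1, LAMC3, ITGA3, ITGA7, ITGA9, ITGAD, ITGAL, ITGAX, ITGB2, ITGB3 and ITGB4.
COL9A2: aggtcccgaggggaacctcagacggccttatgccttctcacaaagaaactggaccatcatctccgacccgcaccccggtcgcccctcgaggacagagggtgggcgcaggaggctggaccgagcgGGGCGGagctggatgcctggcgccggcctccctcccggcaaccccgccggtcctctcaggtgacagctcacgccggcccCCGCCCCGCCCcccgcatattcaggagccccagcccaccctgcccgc
COL17A1: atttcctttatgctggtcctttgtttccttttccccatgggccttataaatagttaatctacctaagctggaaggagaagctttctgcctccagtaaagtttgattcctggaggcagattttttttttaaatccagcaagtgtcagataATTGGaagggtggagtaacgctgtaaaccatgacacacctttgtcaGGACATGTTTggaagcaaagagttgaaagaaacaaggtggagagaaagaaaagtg

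Of the collagens that decorate fibrils rather than build them (fibril-associated collagens) 5 of 8 tested members were called higher at 24 h and none lower, with a median log2 fold change of 1.84. Over all genes 9.22% were called higher and 1.99% lower. COL9A2 and COL9A3 encode chains of type IX collagen, which coats the type II fibrils of cartilage. COL9A2 was at 0.106, 0.136 and 0.0689 CPM with pGFP at 24 h and at 3.22, 2.43 and 1.64 CPM with wild type p53. At 6 h it was at 0.0608, 0.0437 and 0.0174 CPM and at 0.656, 1.12 and 1.14 CPM. All wild type p53 libraries stood well above all pGFP libraries, by a ratio of the pooled counts of 25.4 at 6 h (95% interval 11.4 to 70.2) and 23.3 at 24 h (95% interval 13.4 to 44.3). COL9A3 went from 0.486, 0.197 and 0.314 CPM to 1.78, 2.37 and 3.20 CPM at 6 h and from 0.903, 0.725 and 0.987 CPM to 4.85, 5.44 and 3.91 CPM at 24 h. Its log2 fold changes were 2.88 ± 0.30 (SE, adjusted P 8.28e-08) at 6 h and 2.44 ± 0.27 (adjusted P 5.61e-08) at 24 h. The third chain of type IX collagen, COL9A1, was among the untested members.

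COL21A1, COL20A1 and COL16A1, further fibril-associated collagens, were also called higher at 24 h. COL21A1 was at 1.09, 0.521 and 0.735 CPM with pGFP and at 10.9, 7.12 and 4.82 CPM with wild type p53 at 24 h, a 9.79-fold difference (adjusted P 3.61e-07), and it was 3.91-fold higher at 6 h (adjusted P 0.0045). COL20A1 was at 1.73, 1.59 and 1.56 CPM against 7.65, 3.79 and 5.60 CPM at 24 h, or 3.49-fold, and 5.97-fold higher at 6 h. COL16A1 was called at 24 h, where it stood at 0.558, 0.702 and 0.413 CPM against 1.87, 2.37 and 1.92 CPM (adjusted P 3.76e-06), and not at 6 h (log2 fold change 0.44 ± 0.25, adjusted P 0.373). None of these groups overlapped at 24 h. COL12A1, by far the most abundant gene of this class, rose less, from 34.8, 34.5 and 33.0 CPM to 62.2, 55.2 and 48.6 CPM (1.62-fold, adjusted P 1.29e-07), and so passed on adjusted P alone.

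Among the collagens that form fibrils 4 of 9 tested members were higher and 2 were lower at 24 h, with a median log2 fold change of 0.28. The shares over all genes were 9.22% higher and 1.99% lower. COL27A1, a fibrillar collagen of cartilage, was the most abundant of those that rose, with 13.2, 9.94 and 12.0 CPM under pGFP and 65.9, 44.4 and 41.2 CPM under wild type p53 (log2 fold change 2.11 ± 0.23, adjusted P 7.18e-08). COL2A1, the type II collagen of cartilage fibrils, was at 1.22, 0.589 and 0.482 CPM against 6.00, 5.51 and 3.63 CPM at 24 h (6.67-fold, adjusted P 8.96e-07). It had already been called at 6 h, at 0.101, 0.109 and 0.0523 CPM against 0.891, 0.888 and 0.855 CPM, a ratio of the pooled counts of 10.3 (95% interval 5.80 to 19.8). In each of these comparisons the lowest wild type p53 library exceeded the highest pGFP library. COL5A1, a type V chain that limits the width of fibrils, was at 0.0797, 0.385 and 0.597 CPM with pGFP and 0.774, 1.51 and 1.19 CPM with wild type p53 at 24 h (adjusted P 0.0076). COL5A3 rested on 8 reads against 33 and an adjusted P of 0.0497, and this call held in 11 of 35 alternative analyses.

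The fibrillar collagens COL11A1 and COL1A1 were the only members called lower with wild type p53 at 24 h. COL11A1, a chain of the minor fibrillar collagen type XI, was at 3.59, 2.54 and 2.48 CPM with pGFP and 0.799, 1.08 and 0.878 CPM with wild type p53 (3.10-fold lower, adjusted P 1.3e-06). COL1A1, the main chain of type I collagen, was at 1.78, 1.70 and 1.58 CPM and at 0.550, 0.516 and 0.688 CPM (2.88-fold lower, adjusted P 0.000371). Neither was called at 6 h. COL11A1 then stood at 0.952, 0.962 and 0.906 CPM with pGFP and 0.891, 1.00 and 1.03 CPM with wild type p53. COL1A1 stood at 0.385, 0.459 and 0.436 CPM with pGFP and 0.281, 0.433 and 0.413 CPM with wild type p53. Of these genes only COL11A1 passed the test of the difference between the times, so a change of the COL1A1 response with time is not shown. The pGFP level of both genes was higher at 24 h than at 6 h, by 3.04-fold for COL11A1 (adjusted P 2.11e-06) and 3.94-fold for COL1A1 (adjusted P 2.59e-05), while the wild type p53 libraries at 24 h stayed within 0.516 to 1.08 CPM for the pair. COL25A1, a transmembrane collagen, was also lower with wild type p53 at 24 h on adjusted P alone (log2 fold change -0.80 ± 0.31, adjusted P 0.0459).

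The remaining collagens gave 3 further calls at 24 h beside COL15A1, COL4A1 and the classes above. COL26A1, a short secreted collagen, was at 0.133, 0.0906 and 0.0918 CPM with pGFP and 1.75, 2.28 and 0.854 CPM with wild type p53, a ratio of the pooled counts of 15.9 (95% interval 9.10 to 30.3). COL13A1, a transmembrane collagen of cell-matrix contacts, was at 5.47, 7.57 and 8.56 CPM against 19.3, 19.9 and 16.0 CPM (2.55-fold, adjusted P 3.05e-07). COL4A5, which encodes the type IV chain affected in Alport syndrome, was at 9.75, 7.63 and 6.52 CPM against 20.3, 15.5 and 12.7 CPM (2.03-fold, adjusted P 0.000494), and this call so close to the 2-fold limit held in 28 of 36 alternatives. The abundant type VI collagen genes changed little, with COL6A1 at 1.60-fold (adjusted P 0.000177) and COL6A2 at 1.14-fold (adjusted P 0.0585, or 0.00804 with the replicate block). COL18A1 was 1.33-fold higher (adjusted P 0.00387), with 18.5% of its exonic length shared with SLC19A1 on the opposite strand.

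**Figure D2:**
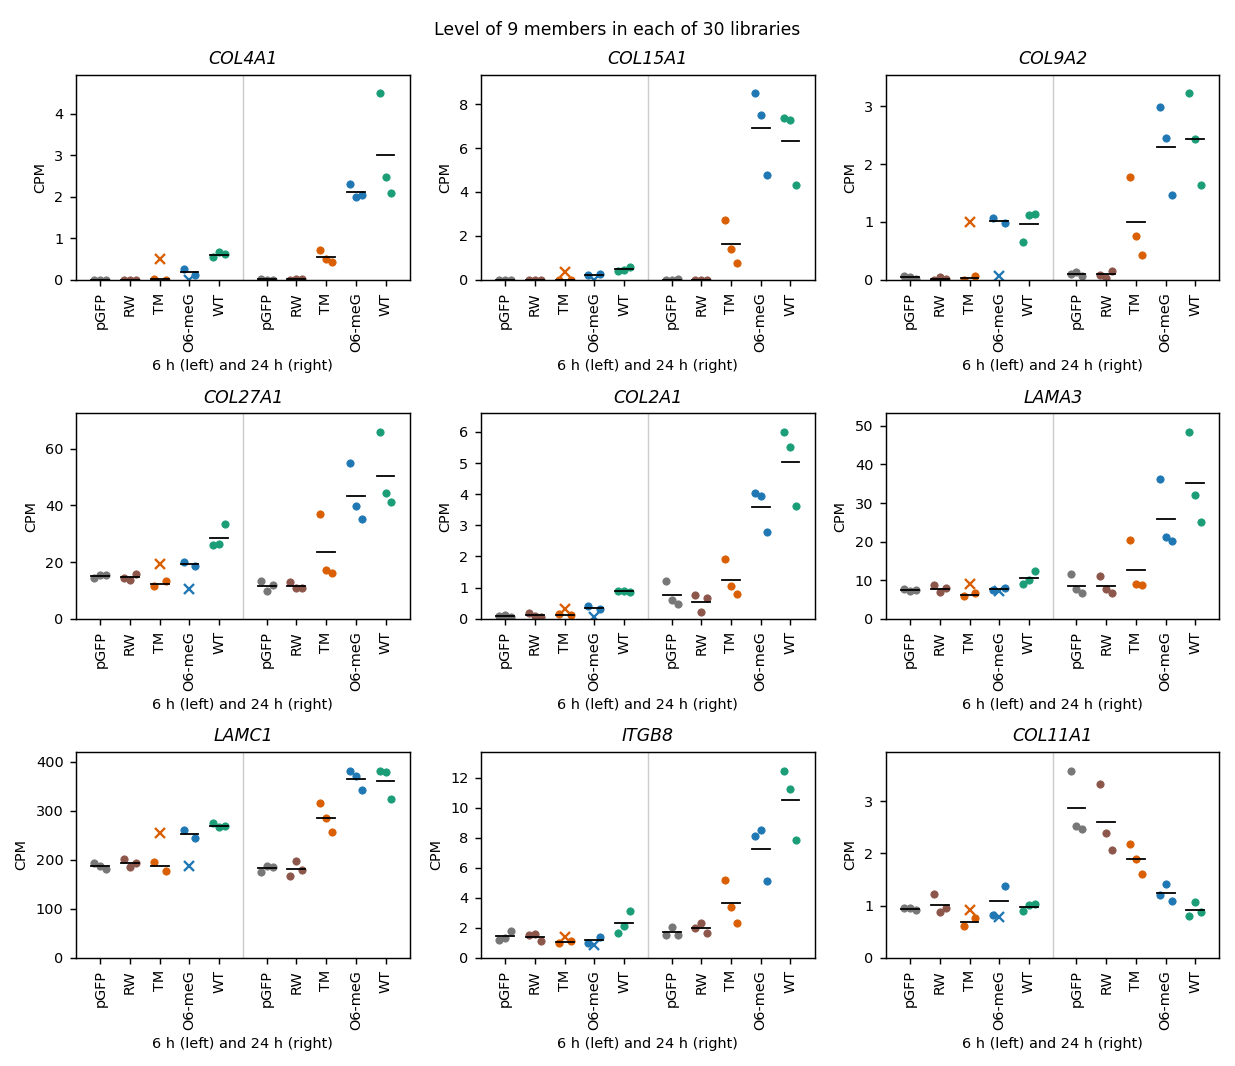
Level in CPM (vertical axis, scale set for each gene) of 9 members in the 5 conditions at 6 h and 24 h; points are libraries, bars are means of the fitted libraries, and crosses are the 2 libraries with contradictory titles, placed by their genotype entry. COL4A1 and COL15A1 lie at or near 0 CPM with pGFP and RW mutant p53. They rise to as much as 4.50 and 7.35 CPM with wild type p53 at 24 h. Among the 24 h groups COL11A1 has its lowest mean with wild type p53.

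Of the laminins, 3 of 12 were called higher at 24 h and none at 6 h, where 9.22% and 4.39% of all genes were called higher. LAMA3, the alpha chain of the laminin that anchors epithelia to their basement membrane, was at 11.5, 7.61 and 6.59 CPM with pGFP and 48.4, 32.1 and 25.1 CPM with wild type p53 (log2 fold change 2.04 ± 0.29, adjusted P 3.15e-06). LAMB3, the beta chain of that trimer, did not pass the test, at 38.1, 58.9 and 67.9 CPM against 49.0, 75.7 and 84.3 CPM with overlapping groups (adjusted P 0.267). Each of these wild type p53 libraries stood above the pGFP library of the same replicate number, and with the replicate number as a block in the fit the adjusted P was 0.163. LAMC1 had the lowest adjusted P of all members at 24 h and went from 174, 187 and 185 CPM to 380, 378 and 324 CPM. Its log2 fold change of 0.99 ± 0.08 (adjusted P 3.34e-10) fell just short of the 2-fold limit, and at 6 h it was 0.52 ± 0.08 (adjusted P 2.35e-05). LAMA1, the alpha chain of the main embryonic laminin, was at 0.0797, 0.159 and 0.252 CPM with pGFP and 0.849, 0.409 and 0.427 CPM with wild type p53 (adjusted P 0.000757). LAMB4, the third call, rested on 51 reads against 5, a ratio of 9.94 (95% interval 3.99 to 31.9).

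Smaller laminin differences ran in both directions at 24 h. LAMA5, an alpha chain of most adult basement membranes, was 1.47-fold higher (adjusted P 0.000572), and LAMC3 was 1.35-fold higher (adjusted P 0.0208) with overlapping groups. LAMA2, the alpha chain of the laminin of muscle and nerve, was lower, at 20.4, 20.3 and 21.3 CPM against 15.3, 16.9 and 15.8 CPM (1.29-fold, adjusted P 0.000853). LAMB2 was also lower, at 94.3, 99.8 and 99.4 CPM against 61.6, 83.8 and 83.7 CPM (1.28-fold, adjusted P 0.00201).

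Among the integrin alpha subunits, those that bind collagen gave 2 calls of 4 at 24 h. All 26 tested integrins gave 4 calls, where 11.2% of all genes were called. ITGA2, the alpha subunit of a collagen receptor of epithelia and platelets, was at 19.6, 25.4 and 31.0 CPM with pGFP and 49.0, 51.7 and 51.9 CPM with wild type p53 (2.00-fold, adjusted P 6.42e-06), and 24 of 36 alternatives kept this call at the limit. ITGA11, a collagen receptor subunit of stromal cells, rested on 5 reads against 53, a ratio of 10.3 (95% interval 4.16 to 33.1). The laminin-binding subunits ITGA3 and ITGA6 were among the highest transcripts of the 3 families and rose by less than 2-fold. ITGA3 was at 298, 347 and 388 CPM against 623, 600 and 585 CPM (1.75-fold, adjusted P 3.5e-08), and it had been 1.38-fold higher at 6 h (adjusted P 0.000327). ITGA6 was at 306, 462 and 430 CPM against 676, 717 and 667 CPM (1.72-fold, adjusted P 9.81e-05). Both pairs of groups were separate. ITGAV, which binds the RGD motif of vitronectin and other ligands, was 1.54-fold higher (adjusted P 7.21e-05), and ITGAM, a subunit best known from myeloid cells, was 1.73-fold higher (adjusted P 8.8e-05) at a level of 8.02, 7.96 and 8.19 CPM with wild type p53.

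In the opposite direction, ITGA5, the alpha subunit of the fibronectin receptor, was at 112, 102 and 99.8 CPM with pGFP and 69.6, 78.3 and 74.5 CPM with wild type p53 at 24 h (1.41-fold lower, adjusted P 1.59e-06). ITGA7, a laminin receptor subunit of muscle, was 1.72-fold lower (adjusted P 0.00426). Neither reached the 2-fold limit.

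The integrin beta subunits contributed 2 calls of 8 at 24 h, where 11.2% of all genes were called. ITGB8, which pairs with ITGAV and binds latent TGF-beta, was at 1.54, 2.02 and 1.51 CPM with pGFP and 12.5, 11.3 and 7.85 CPM with wild type p53 (log2 fold change 2.63 ± 0.28, adjusted P 3.41e-08), the largest fold among the integrins above 1 CPM in both groups. ITGB2, the beta subunit of leukocyte integrins, was at 0.239, 0.181 and 0.115 CPM against 0.550, 0.495 and 0.308 CPM (adjusted P 0.0129). ITGB1, the common partner of the collagen and laminin receptors, was at 440, 514 and 509 CPM against 498, 525 and 541 CPM, and these groups overlapped (log2 fold change 0.10 ± 0.10, adjusted P 0.477). ITGB4, which forms the hemidesmosome receptor with ITGA6, was 1.45-fold higher at 24 h (adjusted P 0.00318) and 1.54-fold higher at 6 h (adjusted P 0.00413). ITGB7 was the only integrin called at 6 h, on 40 reads against 11 (ratio 3.59, 95% interval 1.81 to 7.76), a call kept in 27 of 35 alternatives. In GENCODE v44 42.3% of the exonic length of ITGB7 overlaps other genes, chiefly ZNF740, and whether counting used the strand is not given in the sources used here, so its reads may include those of its neighbour.

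RW mutant p53 was compared with pGFP to ask what p53 protein without normal DNA binding does to these genes. None of the 72 members was called at 6 h or at 24 h, where 0.00469% of all genes were called at each time. The unadjusted p of edgeR was below 0.05 for 0 members at 6 h and 1 at 24 h, and DESeq2 called 0 at both times. COL4A1 was at 0, 0 and 0 CPM at 6 h and 0, 0.0201 and 0.0219 CPM at 24 h with RW mutant p53, and COL15A1 at 0 CPM in all 6 libraries. ITGB8 was at 1.95, 2.32 and 1.65 CPM and LAMA3 at 11, 7.75 and 6.78 CPM at 24 h, both within or next to the pGFP range. The median log2 fold change was -0.01 at both times.

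The p53 O6-meG vector was used to ask whether the response differs when the lesion is delivered to cells with active AGT. Because AGT removes the lesion, this condition does not show what an unrepaired lesion does. At 24 h 21 members were called against pGFP, 17 higher and 4 lower, or 29.2% of the members against 9.16% of all genes (7.36% higher, 1.8% lower). COL4A1 was at 2.31, 1.98 and 2.03 CPM, COL15A1 at 8.49, 7.49 and 4.75 CPM and COL9A2 at 2.99, 2.45 and 1.46 CPM. LAMC1 was called here with a log2 fold change of 1.00 ± 0.08 at 381, 371 and 342 CPM, a call at the limit that 24 of 36 alternatives kept. The 4 lower members were COL1A1 (2.51-fold), COL11A1 (2.31-fold), COL25A1 (2.09-fold) and the type IV chain COL4A4 (2.99-fold). At 6 h, with 2 libraries, 4 collagens were called, 5.56% of the members against 2.13% of all genes. These were COL4A1 at 0.270, (0) and 0.110 CPM, COL15A1 at 0.203, (0) and 0.275 CPM, COL9A2 at 1.06, (0.0739) and 0.989 CPM, and COL9A3 at 1.01, (0.123) and 1.15 CPM. When the bracketed library was put in the group of its genotype entry, no member was called. When each of the 2 libraries with contradictory titles went to the condition its title names first, 6 members were called.

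Compared directly with wild type p53, p53 O6-meG differed in none of the members at either time by adjusted P below 0.05, against 0 and 2 of all genes (0 and 0.00937%). The unadjusted p of edgeR was below 0.05 for 12 members at 6 h and 7 at 24 h, and DESeq2 called 0 at both times. The median log2 difference of the members was -0.14 at 6 h and -0.16 at 24 h, against -0.01 and 0.00 for all genes. For ITGB8 the libraries stood at 8.14, 8.49 and 5.12 CPM with p53 O6-meG and 12.5, 11.3 and 7.85 CPM with wild type p53 at 24 h. These groups overlap, but within each replicate number the p53 O6-meG library was the lower one. With the replicate block in the fit 0 members were called at 24 h as well.

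With p53 TM the response of these genes was largely missing at 6 h and partly present at 24 h. No member was called against pGFP at 6 h with 2 libraries, where 0.0656% of all genes were called, and the median log2 fold change was -0.14. The unadjusted p of edgeR was below 0.05 for 7 members, and DESeq2 called 0. COL4A1 was at 0.0226, (0.490) and 0 CPM, COL15A1 at 0, (0.35) and 0 CPM, and COL9A2 at 0, (1.00) and 0.0715 CPM. The fitted libraries thus lay at or near the pGFP level, and the library with the contradictory title lay near those of wild type p53. At 24 h 6 members were called, all higher, or 8.33% of the members against 3.15% of all genes (3.03% higher). They were COL4A1, COL15A1, COL9A2, COL21A1, COL26A1 and ITGB8. The pGFP libraries are those used with wild type p53.

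The 24 h levels with p53 TM fell between those with pGFP and those with wild type p53 for the most strongly raised collagens. COL4A1 was at 0.726, 0.509 and 0.436 CPM, a ratio of the pooled counts against pGFP of 68.0 (95% interval 11.8 to 2722). COL15A1 was at 2.73, 1.39 and 0.763 CPM, a ratio of 95.7 (95% interval 26.2 to 795). Neither group overlapped with pGFP or with wild type p53. COL9A2 was at 1.78, 0.764 and 0.436 CPM, with its highest library inside the wild type p53 range of 1.64 to 3.22 CPM. Within each replicate number its p53 TM library was below the wild type p53 library. COL21A1 was at 4.41, 1.5 and 1.40 CPM and COL26A1 at 0.501, 0.625 and 0.617 CPM. ITGB8 was at 5.18, 3.38 and 2.31 CPM (2.12-fold above pGFP, adjusted P 0.0109). In COL4A1, COL15A1, COL9A2, COL21A1 and ITGB8 replicate 1 was the highest of the p53 TM libraries, and also the highest of the wild type p53 libraries. By adjusted P alone 11 members passed against pGFP at 24 h (15.3% against 10.7% of all genes), among them LAMC1 at 316, 284 and 257 CPM (1.57-fold, adjusted P 1.35e-06) and COL27A1 at 37.0, 17.1 and 16.1 CPM (log2 fold change 0.997, adjusted P 0.00433).

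**Figure D3:**
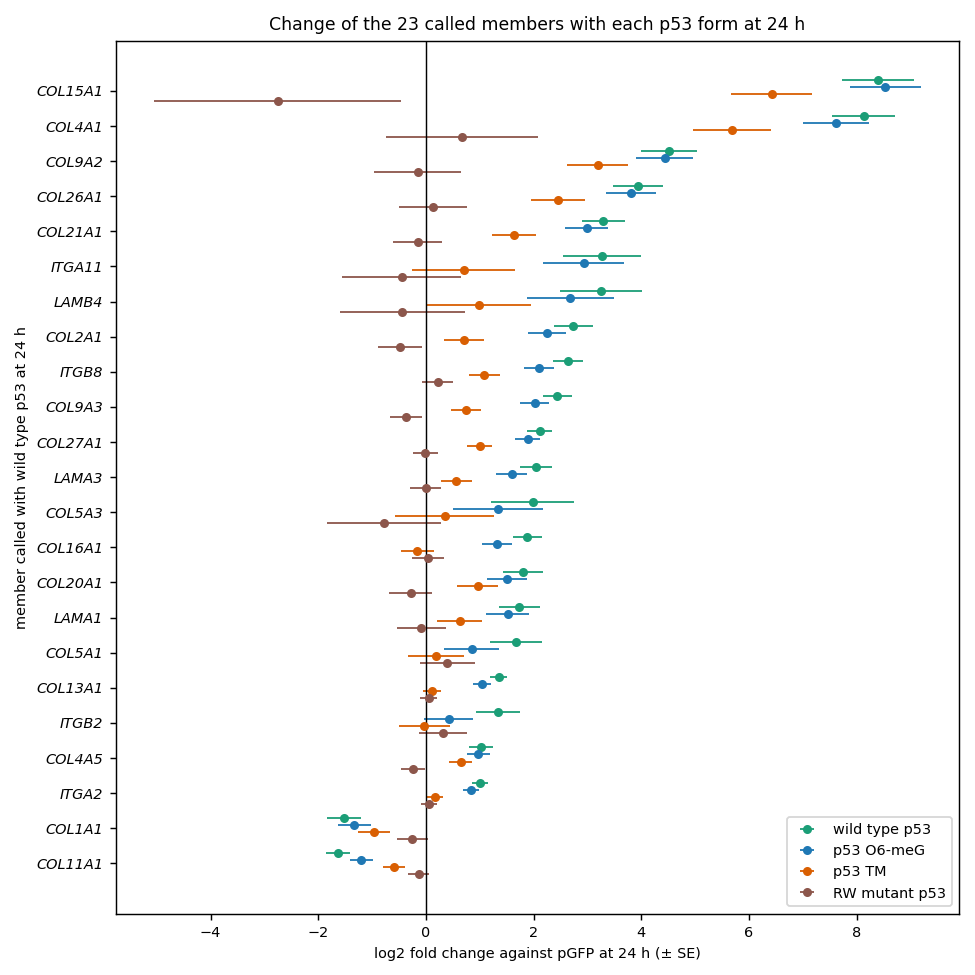
Log2 fold change against pGFP at 24 h (bars of ± 1 SE) of the 23 members called with wild type p53, for wild type p53, RW mutant p53, p53 O6-meG and p53 TM. RW mutant p53 lies around 0 for most members and p53 TM between RW mutant p53 and wild type p53 for most, with COL15A1 at 8.40 for wild type p53 and 6.42 for p53 TM; all 4 series share the pGFP libraries.

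The direct comparison of p53 TM with wild type p53 asks which members differed between these 2 conditions. The lesion and the inhibitor were both present only in p53 TM, and their parts cannot be told apart here. A call here needed an adjusted P below 0.05 with no limit on fold. At 24 h 35 of 72 members differed, 31 lower and 4 higher with p53 TM, which is 48.6% of the members against 21.2% of all genes (11.9% lower, 9.29% higher). The calls covered 15 collagens, 8 laminins and 12 integrins, and the median log2 difference was -0.44 against -0.01 for all genes. The 4 members that were higher with p53 TM were COL11A1 (2.04-fold), ITGA5 (1.23-fold), LAMA2 (1.27-fold) and LAMB2 (1.20-fold), for which wild type p53 stood 3.10-fold, 1.41-fold, 1.29-fold and 1.28-fold below pGFP. Both comparisons share the wild type p53 libraries.

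COL4A1 was 5.45-fold lower with p53 TM than with wild type p53 at 24 h (adjusted P 1.65e-05), COL15A1 3.95-fold (adjusted P 0.000682) and COL2A1 4.09-fold (adjusted P 0.000121). COL16A1 at 0.676, 0.440 and 0.399 CPM and COL13A1 at 7.56, 7.45 and 8.30 CPM stood in or next to the pGFP range with p53 TM and were 4.11-fold and 2.36-fold below wild type p53. LAMA3 was at 20.3, 8.91 and 8.84 CPM, 2.79-fold below wild type p53 (adjusted P 0.000498), and ITGA2 at 24.8, 30.9 and 29.5 CPM, 1.79-fold below (adjusted P 0.000237). Differences were smaller for the abundant laminin receptors, with ITGA3 1.37-fold and ITGA6 1.52-fold lower. COL17A1, which did not pass against pGFP with wild type p53, was at 8.14, 8.59 and 9.51 CPM with p53 TM, 1.48-fold below wild type p53 (adjusted P 0.00196). ITGB7 and ITGA4, with overlaps of other genes over 42.3% and 26.4% of their exonic length, were also called lower.

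At 6 h 16 members were lower with p53 TM than with wild type p53 and none was higher, which is 22.2% of the members against 10.9% of all genes, or 8.14% in the lower direction. These were 9 collagens, 2 laminins and 5 integrins. COL4A1 had 1 read in the 2 fitted libraries against 94 reads with wild type p53, a ratio of 61.0 (95% interval 10.7 to 2434), COL9A3 had 16 against 397, a ratio of 16.1 (95% interval 9.79 to 28.4), and COL15A1 had none, at least 16.9-fold lower. LAMC1 at 195, (255) and 177 CPM against 274, 265 and 269 CPM was 1.45-fold lower (adjusted P 0.000119), and ITGA3 was 1.31-fold lower (adjusted P 0.00659). Without replicate 1 of p53 TM 10 members were called, in a fit that had 1 library of p53 TM at 6 h and assumed it to vary like the other groups. With the library of contradictory title placed by its genotype entry 0 were called, and with it placed by the first part of its title 19 were.

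**Figure D4:**
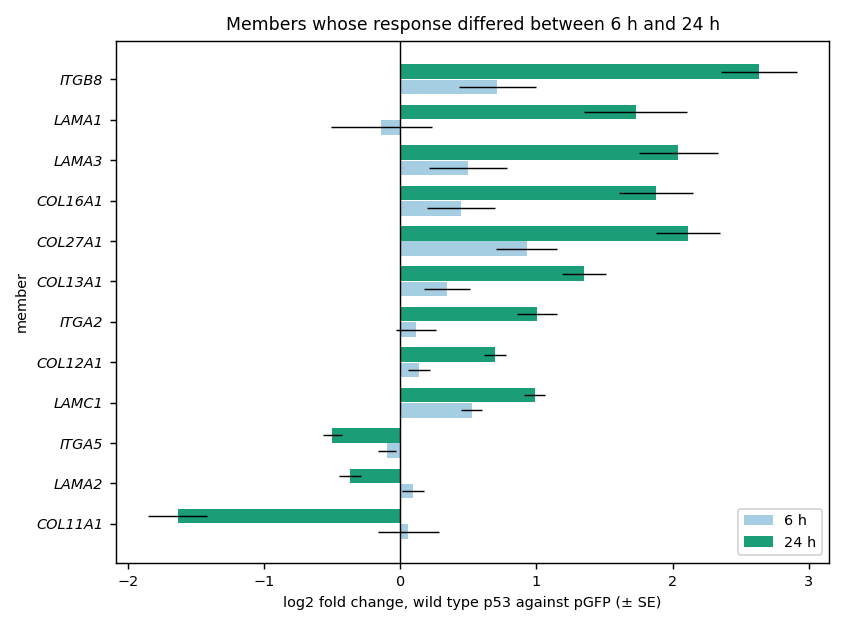
Log2 fold change of wild type p53 against pGFP at 6 h and at 24 h (bars of ± 1 SE) for the 12 members whose response differed between the times. ITGB8, LAMA1, LAMA3 and COL16A1 show the largest gains, and COL11A1 goes from 0.06 to -1.63.

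Whether the wild type p53 response changed with time was tested as the difference of the log2 fold changes at 24 h and 6 h. It differed for 12 members, 9 with a higher and 3 with a lower value at 24 h, or 16.7% of the members against 6.51% of all genes (3.73% higher, 2.77% lower). ITGB8 went from 0.71 ± 0.28 at 6 h to 2.63 ± 0.28 at 24 h (adjusted P of the difference 0.00389), and LAMA3 from 0.50 ± 0.29 to 2.04 ± 0.29 (adjusted P 0.02). LAMA1 went from -0.14 ± 0.37 to 1.73 ± 0.38, COL16A1 from 0.44 ± 0.25 to 1.88 ± 0.27, COL13A1 from 0.34 ± 0.17 to 1.35 ± 0.16 and ITGA2 from 0.11 ± 0.15 to 1.00 ± 0.15. COL27A1, COL12A1 and LAMC1 completed the members with a larger rise at 24 h, and COL11A1, LAMA2 and ITGA5 were those with a lower value. For COL9A2 the difference between the times did not pass the test. For COL4A1 and COL15A1, which had 0 reads with pGFP at 6 h, a difference of folds cannot be estimated.

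The pGFP cultures themselves changed between the times, also in these families. From 6 h to 24 h 15 members were called with pGFP, 14 higher and 1 lower, or 20.8% of the members against 9.96% of all genes (8.17% higher, 1.79% lower). The median log2 difference was 0.38 against 0.00 for all genes. ITGA6 was the lower one, from 878, 836 and 852 CPM to 306, 462 and 430 CPM (2.14-fold, adjusted P 1.71e-06). ITGB4, its partner, went the other way from 3.08, 4.04 and 4.36 CPM to 7.94, 8.81 and 9.64 CPM (2.30-fold, adjusted P 5.82e-07). Of the higher members 7 were collagens, among them COL2A1, COL5A1, COL6A3 and COL20A1, which were all below 0.5 CPM at 6 h. ITGAD, ITGAL and ITGAX, integrin subunits known from leukocytes, were called on no more than 21 reads over the 3 libraries at 24 h. The summed leukocyte markers of the same libraries were at 0.830 to 1.01 CPM at 6 h and at 2.25 to 2.40 CPM at 24 h over the 5 markers in the table, and the part of such low-level RNA was not tested.

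Genes that act on or beside these proteins were counted from lists of their partners. Of 27 tested collagen-processing enzymes and chaperones 4 were called higher with wild type p53 at 24 h and none lower, where 9.22% of all genes were called higher and 11.2% in either direction. They were LOXL1, a crosslinking lysyl oxidase, at 7.17, 9.15 and 10.6 CPM against 38.1, 38.2 and 29.5 CPM (log2 fold change 1.97 ± 0.15), BMP1, which removes the C-terminal propeptides of fibrillar procollagens (1.68 ± 0.16), P4HA2, a prolyl hydroxylase subunit (1.12 ± 0.14), and ADAMTS2, an N-propeptidase, below 0.4 CPM in every library at 24 h. Of 16 other matrix glycoproteins 1 was called, the basement membrane proteoglycan AGRN (1.76 ± 0.14), of 23 integrin adaptors and focal adhesion proteins 1, the integrin activator FERMT1 (2.47 ± 0.16), and of 14 matrix metalloproteinases and inhibitors 2, MMP15 (2.28 ± 0.19) and MMP11 (1.41 ± 0.20). FERMT1 was at 12.1, 17.1 and 18.3 CPM with pGFP, 37.8, 29.6 and 26.5 CPM with p53 TM and 104, 93.2 and 67.7 CPM with wild type p53, without overlap of these groups. Among 12 other collagen and laminin receptors the syndecan SDC1 was higher (2.36 ± 0.18) and SDC2 lower (-1.0 ± 0.34). The counts of 1 of 16 and 1 of 23 lie below the share over all genes, and those of the other lists are close to it. Median log2 fold changes were 0.17 for the processing enzymes and chaperones, 0.39 for the glycoproteins, 0.08 for the adaptors, 0.30 for the metalloproteinases and inhibitors and 0.19 for the receptors, against 0.01 for all genes. Of 9 hemidesmosome components 1 was called against pGFP, LAMA3, which is near the 11.2% of all genes, and 5 were lower with p53 TM than with wild type p53, against 11.9% of all genes, namely COL17A1, ITGA6, ITGB4, LAMA3 and PLEC.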

How the data were processed

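Raw counts per gene were the deposited values used, and no normalized value of the authors entered a test. The authors had aligned reads of ribosomal RNA-depleted, stranded libraries to hg38 with STAR 2.5.3a and had counted them on GENCODE v27 with featureCounts of Subread 1.5.2; whether counting used the strand is not given in the sources used here. Symbols, coordinates and exonic lengths came from GENCODE v44 (38904 of 39359 identifiers matched, 455 not). The families, gene lists and tests were chosen with earlier results of these data known, and the members of the families were then taken by symbol.

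Counts of 28 libraries in 10 groups were fitted in 1 model with edgeR 4.0.16 (R 4.3.3): filterByExpr left 21335 genes, library sizes were scaled by TMM, and each contrast was a quasi-likelihood F test with Benjamini-Hochberg adjustment over all 21335 genes. Against pGFP, and between the times with pGFP, a call needed an adjusted P below 0.05 and a 2-fold difference, as in the study. Between forms of p53 and between the responses at 2 times it needed the adjusted P alone. The replicate was the culture of the label, n = 3 or 2. CPM is the count per 1000000 TMM-scaled counts of the library, and RPKM is CPM per kilobase of exonic length. Where a group had few reads, the ratio of pooled counts per scaled library size with an exact 95% interval was used, or, against 0, a floor of 3 counts over the group; both cover counting error only, and amplified reads are not independent molecules. Depths of 32302699 to 71950532 counts set this precision.

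Same-numbered libraries deviated together at 24 h (30 of 30 pairs of groups with a correlation above 0.1, median 0.565) and less clearly at 6 h (6 of 9, median 0.241). The pairing comes from the replicate numbers in the labels, and a fit with the replicate block was run beside the unblocked one, which follows the study's methods. No pair of replicates was alike within sampling noise (chi-square per degree of freedom 5.301 to 42.58 over 30 pairs). In simulated counts of wild type p53 against pGFP at 24 h with 200 of 21335 genes changed, edgeR recovered 175 with 1 false call, and DESeq2 1.42.0 recovered 171 with 1. Recovery was not split by size of change or by level. It therefore does not bear on calls near the fold limit, calls by adjusted P alone or genes silent with pGFP. Alternatives were other placements of the libraries with contradictory titles, DESeq2, other filters, fits of only the compared groups, and leaving out each library. Any member could be named. Named in full were members called in a comparison and the 3 highest per family by RPKM, and from the partner lists at most 4 called genes. Values of some genes are not reported here. Promoter windows came from RefSeq on GRCh38.p14.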

Additional observations from a re-analysis of the deposited data

Results flagged for a closer look

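The response of 12 members to wild type p53 differed between 6 h and 24 h by the test of the difference itself in edgeR, and these results are listed here by the change in log2 fold change, 24 h minus 6 h. Among the collagens it was 1.43 for COL16A1, 1.18 for COL27A1, 1.01 for COL13A1, 0.56 for COL12A1 and -1.69 for COL11A1. The laminin chains gave 1.87 for LAMA1, 1.54 for LAMA3, 0.46 for LAMC1 and -0.46 for LAMA2. The integrin subunits gave 1.92 for ITGB8, 0.89 for ITGA2 and -0.40 for ITGA5. The pGFP level enters both fold changes, and in pGFP COL11A1 was itself 3.04-fold higher at 24 h than at 6 h.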

How the results depend on the processing

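Counts of called members are given as reported and then under each alternative that moved them by over 1.5 times. A minimum of 10 counts in every library left 43 members to test in place of 72, most low members being untested. Untested members cannot be called, and the share of all genes called was not computed under this filter. It gave 0 in place of 8 for wild type p53 at 6 h and 8 in place of 23 at 24 h. For p53 O6-meG it gave 0 in place of 4 at 6 h and 8 in place of 21 at 24 h. For p53 TM at 24 h it gave 1 in place of 6. For p53 TM against wild type p53 it gave 8 in place of 16 at 6 h and 23 in place of 35 at 24 h. For pGFP over time it gave 4 in place of 15. Placing the 2 libraries with contradictory titles by their genotype entry gave 0 in place of 4 for p53 O6-meG at 6 h. The same placement gave 0 in place of 16 for p53 TM against wild type p53 at 6 h. With the condition that each title names first, these counts were 6 and 19, neither moved by over 1.5 times. Fitting only the compared groups gave 20 in place of 35 for p53 TM against wild type p53 at 24 h. Leaving out 1 library gave 10 to 17 members for p53 TM against wild type p53 at 6 h, with 10 without replicate 1 of p53 TM (1 library left, assumed to vary like the other groups), and 27 to 35 at 24 h, 20 to 24 for wild type p53 against pGFP at 24 h and 7 to 9 at 6 h.

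With the replicate block 25 members in place of 23 were called for wild type p53 at 24 h, 8 at 6 h as before, 21 for p53 O6-meG at 24 h, 6 for p53 TM at 24 h, 21 in place of 16 and 39 in place of 35 for p53 TM against wild type p53 at 6 h and 24 h; the pairing moved no count by over 1.5 times. Of the values of single genes under all alternatives 4726 kept their direction and call, 221 lost the call and 0 reversed. A gene not tested in an alternative is not counted there, so low members do not enter under the strictest filter. Most alternatives leave out 1 library, often from a group outside the comparison. DESeq2 called 21 members for wild type p53 at 24 h and 7 at 6 h. Members below about 10 reads in a group, such as COL5A3, LAMB4 and ITGA11, are limited by depth.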
